A study of Mus musculus with 6 samples.

Results

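Expression of 10 genes of the Notch signalling pathway was examined in stimulated regulatory T cells (Tregs) of mice labelled Bach2-cKO and WT. The genes were taken by name from the deposited table of 49585 genes: the nuclear factor gene Rbpj, the receptor genes Notch1, Notch2 and Notch3, the target genes Hes1, Dtx1 and Nrarp, the coactivator genes Maml1 and Maml2, and the inhibitor gene Numb. Tregs are CD4 T cells that carry the factor FOXP3 and hold other immune cells in check. Cells that were positive for CD4 and YFP and negative for B220 were sorted from spleens of C57BL/6 mice aged 7 weeks, and the design text adds CD25 to that gate. Both groups were stimulated for 24 hours with plate-bound antibodies to CD3 and CD28 before poly(A) RNA was sequenced, so no unstimulated cells are compared. There were 3 libraries from Bach2-cKO mice, called Bach2 deficient in the design text, and 3 from WT mice. The labels do not give the promoter that drives the recombinase and the YFP, the cells that lost Bach2, or which exons were removed. Nor do they say whether each library came from a separate mouse, so the spread behind every p-value is that of these libraries and may be technical.

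Notch receptors sit at the cell surface and are cut after they bind a ligand of the Delta or Jagged family on a neighbouring cell. The freed intracellular part enters the nucleus and joins RBPJ, the DNA-binding factor of the pathway, and a Mastermind-like (MAML) coactivator, and the complex switches on targets such as Hes1, Dtx1 and Nrarp. Without the receptor's intracellular part, RBPJ is bound by corepressors and holds targets down. In lymphocytes the pathway is known for T cell fate choice in the thymus, where NOTCH1 acts, and for marginal zone B cells of the spleen, which need NOTCH2. BACH2 is a transcriptional repressor that holds back effector differentiation of T cells and binds DNA elements shared with AP-1 factors.

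Recovered read totals per library lay between 27703735 and 31976067 in Bach2-cKO and between 27697735 and 43884431 in WT. Bach2 was at 88.85, 104.5 and 120.8 FPKM (fragments counted per kilobase of length and per 1000000 reads of the library) in Bach2-cKO libraries 1, 2 and 3, against 112.0, 111.4 and 99.41 FPKM in WT libraries 1, 2 and 3, and a value summed over all exons does not check a deletion of unknown extent. Foxp3 averaged 123.2 ± 26.5 FPKM in Bach2-cKO and 116.0 ± 10.1 FPKM in WT (SD, n = 3 each). Genes of B cells were abundant in every library although the gate left out B220-positive cells. The 12 B cell markers summed to between 1781 and 2287 FPKM in Bach2-cKO and between 1255 and 1770 FPKM in WT, with Pax5, a B cell lineage factor, at 284.6 ± 32.1 FPKM in Bach2-cKO and 181.5 ± 17.3 FPKM in WT (SD, n = 3 each), and 4 of the 12 passed the test as higher in Bach2-cKO. Of the 6 Treg markers 1 passed, Il2ra, as higher, with sums of 1779 to 2089 FPKM in Bach2-cKO and 1522 to 1861 FPKM in WT. These sums hold Il2ra itself, at a mean of 482.0 FPKM in Bach2-cKO and 256.3 FPKM in WT. The other Treg markers went both ways without passing. Their log2 fold changes, Bach2-cKO over WT, were 0.07 for Foxp3, 0.35 for Ctla4, -0.43 for Ikzf2, -0.31 for Cd4 and -0.18 for Cd3e. Of the 6 CD8 T cell markers 5 passed the test as higher in Bach2-cKO, with sums of 112.0 to 174.2 FPKM in Bach2-cKO against 72.72 to 77.86 FPKM in WT. Of the 6 plasma cell markers 5 were tested and 3 passed as higher (Jchain, Mzb1 and Prdm1), with sums of 263.2 to 333.6 FPKM in Bach2-cKO and 155.3 to 170.4 FPKM in WT. Sdc1 and Irf4 did not pass, at log2 fold changes of -0.05 and 0.17, and Tnfrsf17 was too low to be tested. Which cells the Prdm1 transcripts came from was not tested. The marginal zone B cell list, which holds Dtx1 itself, had 1 of 6 genes higher and sums of 125.7 to 133.8 FPKM in Bach2-cKO against 104.9 to 150.4 FPKM in WT. Of 10 myeloid and dendritic cell markers 4 were tested and 1 passed, as lower, with sums of 14.87 to 43.43 FPKM in Bach2-cKO and 16.82 to 21.59 FPKM in WT. No marker of these lists was at 0 in every library. In such bulk samples, fewer cells of a type and less RNA per cell cannot be told apart.

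Of the 10 genes, Rbpj alone passed the test between the groups: it was higher in Bach2-cKO, while the receptors, targets, coactivators and Numb did not pass the test. The test was limma on log2(FPKM + 1) across all genes that reached 1 FPKM in 3 or more libraries, with a Benjamini-Hochberg adjusted p under 0.05 as the threshold, and fold changes below are Bach2-cKO over WT on this scale unless said otherwise. Of the 10 genes 8 reached the filter, and Notch3 and Nrarp did not. Among the 8, 1 was called (12.5%), against 15.3% of all 13766 tested genes, of which 7.02% were called higher and 8.31% lower. The share of these genes that changed was therefore close to the background. The groups did not overlap for 3 of the 8 genes, above WT for Rbpj and below WT for Notch2 and Maml2, where 35.6% of all tested genes had groups that did not overlap (15.5% above and 20.1% below).

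**Figure D1:**
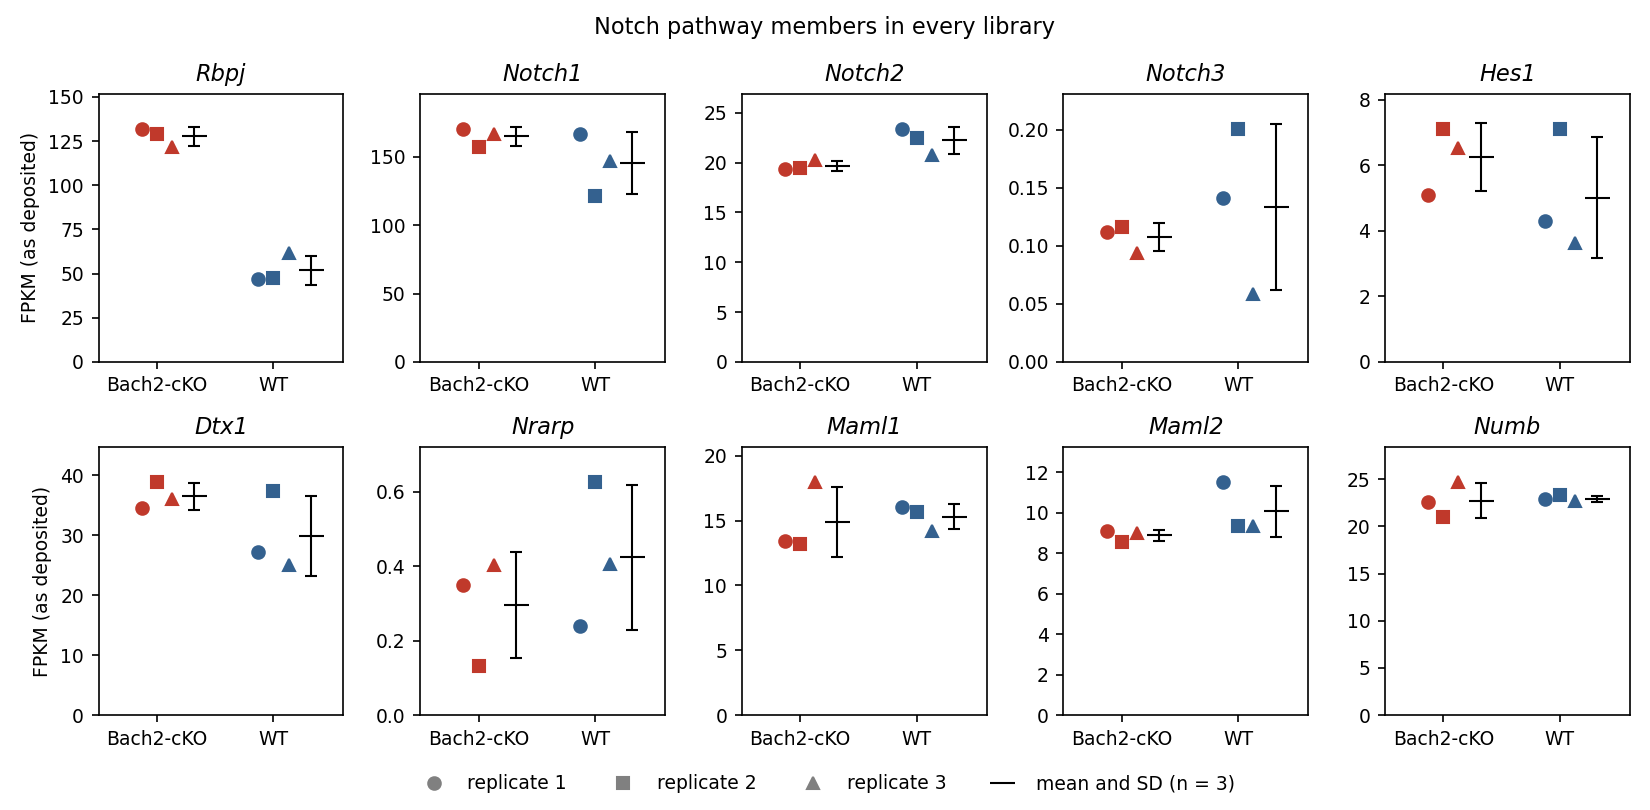
FPKM of each of the 10 genes in every library, Bach2-cKO left of WT, with the replicate number as the symbol and the mean and SD (n = 3) as the cross and bars; each panel has its own axis from 0. The 3 Bach2-cKO libraries lay between 121.7 and 132.1 FPKM for Rbpj, above WT at 46.73 to 61.49 FPKM, while the other panels show overlapping or nearly touching groups.

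Rbpj encodes the only DNA-binding partner through which all Notch receptors act in the canonical pathway. The gene (ENSMUSG00000039191) lies on the plus strand of chromosome 5 from 53466152 to 53657362 (GRCm38). It was at 132.1, 129.1 and 121.7 FPKM in Bach2-cKO libraries 1, 2 and 3, against 46.73, 47.61 and 61.49 FPKM in WT libraries 1, 2 and 3. Every Bach2-cKO library was at about the same level and well above each WT library, and WT library 3 was the highest of its group. The means were 127.6 ± 5.31 FPKM in Bach2-cKO and 51.94 ± 8.28 FPKM in WT (SD, n = 3 each). The log2 fold change was 1.29 (SE 0.11, 95% interval 1.04 to 1.54, limma adjusted p = 0.000571), a 2.45-fold difference with an interval of 2.06 to 2.91. Among the 13766 tested genes Rbpj was at rank 74 by p-value and at rank 93 by fold change from the highest. Between 4226 and 11860 reads lay behind each value. A processed pseudogene of Rbpj, Rbpsuh-rs3 on chromosome 6 from 46529354 to 46530794, can share its reads. It was at 5.636, 4.471 and 4.297 FPKM in Bach2-cKO libraries 1, 2 and 3, against 1.566, 1.864 and 2.881 FPKM in WT libraries 1, 2 and 3, from 83 to 225 reads, and was also called (log2 fold change 0.92, SE 0.18, limma adjusted p = 0.0162). It held between 1.71% and 2.10% of the reads of both loci in Bach2-cKO and between 1.65% and 2.30% in WT, so its count followed that of Rbpj. With the reads of both added, the ratio of means of Bach2-cKO over WT was 2.45, against 2.46 for Rbpj alone in FPKM. Rbpj was called under 13 of 13 other settings, with limma adjusted p-values between 7.48e-05 and 0.0315. The last of these came from a fit that took the B cell marker score of each library as a covariate, in which the log2 fold change was 1.39. The 5 CD8 T cell and 3 plasma cell markers that passed, given above, were also higher in Bach2-cKO, and their part in the Rbpj difference was not tested.

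The sequence upstream of Rbpj is shown because Rbpj was the gene that rose, and that of Lfng because this modifier of Notch receptors, described below, fell and its window also holds the core letters to which RBPJ binds. Both come from RefSeq on GRCm38.p6, plus strand, and start 250 bases before a transcript start; each stops where the first annotated exon in the window begins. The Rbpj window lies inside the annotated span of the gene, which begins further upstream. The Rbpj stretch is chr5:53590096-53590213 and the Lfng stretch is chr5:140607091-140607319. Capitals mark TGGGAA on the given strand or TTCCCA, which is TGGGAA on the other strand.
Rbpj: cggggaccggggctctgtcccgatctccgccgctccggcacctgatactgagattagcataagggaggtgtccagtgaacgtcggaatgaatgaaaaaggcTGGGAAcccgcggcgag
Lfng: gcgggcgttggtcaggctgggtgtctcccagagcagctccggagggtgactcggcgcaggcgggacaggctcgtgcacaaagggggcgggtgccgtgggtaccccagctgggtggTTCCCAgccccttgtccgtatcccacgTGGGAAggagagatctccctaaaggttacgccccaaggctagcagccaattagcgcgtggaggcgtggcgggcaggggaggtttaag
In Rbpj the match shown starts at position -149 from the transcript start. Another match at position -65 on the other strand overlaps an annotated exon and is not shown. In Lfng the matches start at positions -135 (other strand) and -108 (given strand). RefSeq promoters were matched for 9 of the 10 genes, with 13 windows in all, and Hes1 was without an entry. TGGGAA, searched on both strands, was in the 250 upstream bases of 2 of these 9 genes, Rbpj and Maml2, counting any window of a gene. By window, not by gene, 21.6% of 32851 windows of that length hold it. Genes with several windows have more places for a match, so these figures are not on the same unit. TGACTCA, a core of AP-1 and MAF elements searched on both strands, was in 0 of the 9 and in 4.46% of all windows. Of the other pathway genes described below, the windows of Poglut1, Aak1 and Cd44 hold TGGGAA as well, and that of Kat2b holds TGACTCA, at position -240 on the other strand. These are letters in a window, and binding was not measured.

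None of the receptor genes passed the test. Notch1, the main Notch receptor of developing and activated T cells, was at 170.6, 157.4 and 166.3 FPKM in Bach2-cKO libraries 1, 2 and 3, against 166.7, 121.6 and 147.0 FPKM in WT libraries 1, 2 and 3. WT library 1 was as high as the Bach2-cKO libraries, so the groups overlapped. The means of Notch1 were 164.8 ± 6.73 FPKM in Bach2-cKO and 145.1 ± 22.6 FPKM in WT (SD, n = 3 each), with a log2 fold change of 0.19 (SE 0.11, 95% interval -0.062 to 0.45, limma adjusted p = 0.280). It was 0.07 without WT replicate 2 and 0.30 without WT replicate 1, the ends of the range with 1 library left out. Its gene (ENSMUSG00000026923) is on the minus strand of chromosome 2 from 26457903 to 26516663. When the B cell marker score given below was a covariate, the log2 fold change of Notch1 was 0.51 (limma adjusted p = 0.0923). That p was the lowest of a range up to 0.612 over the 13 other settings. The fold change was more than 1.5 times the value without the score. WT library 2, the lowest for Notch1, had the highest B cell score of its group. The part of B cells in the Notch1 values was not tested.

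Notch2, the receptor that marginal zone B cells need, was at 19.34, 19.43 and 20.23 FPKM in Bach2-cKO libraries 1, 2 and 3, against 23.43, 22.48 and 20.77 FPKM in WT libraries 1, 2 and 3. All Bach2-cKO values lay below all WT values, but the nearest were close to each other. The means of Notch2 (ENSMUSG00000027878, chromosome 3, plus strand, 98013527 to 98150361) were 19.67 ± 0.491 FPKM in Bach2-cKO and 22.23 ± 1.35 FPKM in WT (SD, n = 3 each). The log2 fold change was -0.17 (SE 0.073, 95% interval -0.34 to 0.0023, limma adjusted p = 0.167), which did not pass.

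Notch3 (ENSMUSG00000038146, chromosome 17, minus strand, 32120820 to 32166880 in the deposited table) was barely detected. It was at 0.112, 0.117 and 0.0940 FPKM in Bach2-cKO libraries 1, 2 and 3, against 0.142, 0.201 and 0.0584 FPKM in WT libraries 1, 2 and 3, from 13 to 50 reads a library. The Bach2-cKO values fell inside the range of the WT values. An exact two-sided permutation test of its log2(FPKM + 1) gave p = 0.7, where 0.1 is the smallest p that 3 libraries against 3 allow. Notch4, the fourth receptor, was low too, at 0.957, 0.970 and 0.908 FPKM in Bach2-cKO libraries 1, 2 and 3, against 1.532, 2.532 and 1.447 FPKM in WT libraries 1, 2 and 3. The Notch4 groups did not overlap, and the log2 fold change was -0.52 (SE 0.18) at a limma adjusted p = 0.0959. At this low level the pseudocount of 1 holds the value down: it was -0.85 with a pseudocount of 0.1 and -0.89 by limma-voom on recovered reads, and it was -0.88 when the B cell marker score was a covariate, none past the threshold.

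Neither coactivator gene passed the test. Maml1 and Maml2 encode Mastermind-like proteins, which bind the complex of RBPJ and the receptor's intracellular part. Maml1 was at 13.41, 13.23 and 18 FPKM in Bach2-cKO libraries 1, 2 and 3, against 16.08, 15.64 and 14.23 FPKM in WT libraries 1, 2 and 3. Bach2-cKO library 3 was the highest of all 6 and the other Bach2-cKO libraries the lowest, and the log2 fold change was -0.05 (SE 0.13, 95% interval -0.34 to 0.24, limma adjusted p = 0.821). Maml2 was at 9.072, 8.566 and 8.978 FPKM in Bach2-cKO libraries 1, 2 and 3, against 11.52, 9.326 and 9.345 FPKM in WT libraries 1, 2 and 3. The Maml2 groups did not overlap, but 2 of the WT libraries lay just above the Bach2-cKO libraries, and the log2 fold change of -0.16 (SE 0.10, 95% interval -0.40 to 0.085) did not pass (limma adjusted p = 0.350). It shrank to -0.07 without WT replicate 1, the highest library, and to -0.0047 when the B cell marker score given below was a covariate. Maml1 (ENSMUSG00000050567) is on chromosome 11, minus strand, from 50255634 to 50292311. Maml2 (ENSMUSG00000031925) is on chromosome 9, plus strand, from 13297957 to 13709388.

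The target genes did not pass the test, and for Dtx1 and Hes1 the WT library with the most B cell signal was as high as the Bach2-cKO libraries. Dtx1, which encodes a ubiquitin ligase of the Deltex family that binds Notch receptors, was at 34.44, 38.89 and 36.06 FPKM in Bach2-cKO libraries 1, 2 and 3, against 27.21, 37.39 and 24.94 FPKM in WT libraries 1, 2 and 3. WT library 2 lay among the Bach2-cKO libraries and the other WT libraries below them. The means of Dtx1 (ENSMUSG00000029603, chromosome 5, minus strand, 120680202 to 120711927) were 36.46 ± 2.25 FPKM in Bach2-cKO and 29.85 ± 6.63 FPKM in WT (SD, n = 3 each). The log2 fold change was 0.30 (SE 0.14, 95% interval -0.029 to 0.63, limma adjusted p = 0.199). It was 0.19 without WT replicate 3. Without WT replicate 2 Dtx1 passed, at 0.47 (limma adjusted p = 0.0215, with a range of 0.0215 to 0.679 over the 13 other settings).

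Hes1 encodes a basic helix-loop-helix repressor and is the best known target of the pathway. It was at 5.099, 7.129 and 6.546 FPKM in Bach2-cKO libraries 1, 2 and 3, against 4.302, 7.108 and 3.636 FPKM in WT libraries 1, 2 and 3. As with Dtx1, WT library 2 was as high as the Bach2-cKO libraries. Hes1 (ENSMUSG00000022528, chromosome 16, plus strand, 30064384 to 30067796) averaged 6.258 ± 1.05 FPKM in Bach2-cKO and 5.015 ± 1.84 FPKM in WT (SD, n = 3 each), with a log2 fold change of 0.30 (SE 0.22, 95% interval -0.21 to 0.81, limma adjusted p = 0.395). With 1 library left out the log2 fold change of Hes1 ran from 0.14 (without WT replicate 3) to 0.54 (without WT replicate 2), none past the threshold. Between 72 and 163 reads lay behind each Hes1 value. Its interval reaches from a decrease to a 1.76-fold increase.

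The B cell marker score, the mean log2(FPKM + 1) of the 12 markers, was 6.523, 6.856 and 6.663 in Bach2-cKO libraries 1, 2 and 3, against 6.082, 6.515 and 6.143 in WT libraries 1, 2 and 3. WT library 2 was thus at the level of Bach2-cKO library 1, and it was also the WT library in which Dtx1 and Hes1 were highest. When this score was a covariate, the log2 fold change turned to -0.12 for Dtx1 (limma adjusted p = 0.679) and to -0.36 for Hes1 (limma adjusted p = 0.414). As the score itself was higher in every Bach2-cKO library, the genotype and the B cell signal cannot be told apart fully in these 6 libraries.

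**Figure D2:**
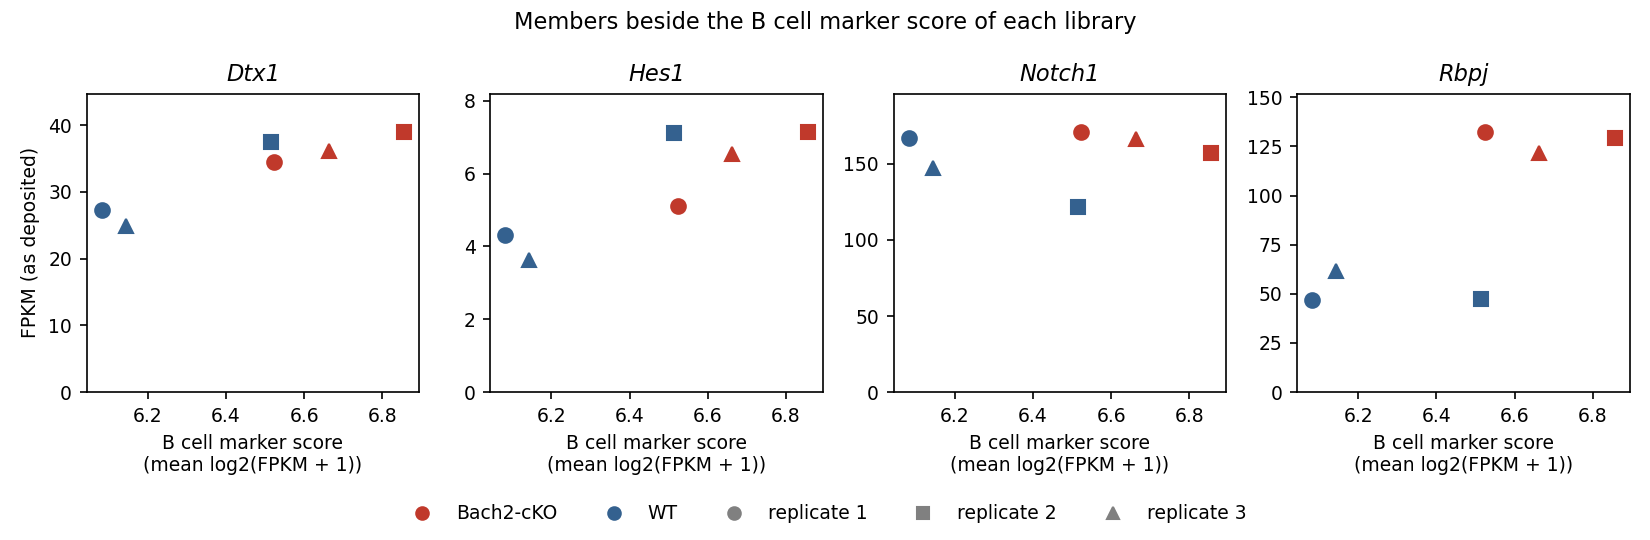
FPKM of Dtx1, Hes1, Notch1 and Rbpj (vertical axis, from 0) against the B cell marker score of the library (horizontal axis, mean log2(FPKM + 1) of 12 markers), 1 point per library. WT library 2, at a score of 6.515, lay beside the Bach2-cKO libraries for Dtx1 (37.39 FPKM) and Hes1 (7.108 FPKM) but with the other WT libraries for Rbpj (47.61 FPKM).

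Nrarp encodes an ankyrin-repeat protein that is both a target and an inhibitor of the Notch complex, and few reads were counted for it. It was at 0.350, 0.133 and 0.404 FPKM in Bach2-cKO libraries 1, 2 and 3, against 0.238, 0.627 and 0.406 FPKM in WT libraries 1, 2 and 3, from 11 to 50 reads. The groups overlapped and an exact two-sided permutation test gave p = 0.4 (n = 3 each; smallest possible 0.1). With so few reads no difference in Nrarp (ENSMUSG00000078202, chromosome 2, plus strand, 25180758 to 25183339) was detectable.

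Numb, an endocytic adaptor that antagonises Notch receptors, was the most even of the genes in WT. It was at 22.53, 20.95 and 24.72 FPKM in Bach2-cKO libraries 1, 2 and 3, against 22.85, 23.27 and 22.64 FPKM in WT libraries 1, 2 and 3. The WT values lay inside the range of the Bach2-cKO values. The log2 fold change of Numb (ENSMUSG00000021224, chromosome 12, minus strand, 83794034 to 83921934) was -0.01 (SE 0.078, limma adjusted p = 0.926), with a 95% interval from -0.20 to 0.17, and its sign turned under median-ratio scaling (0.0103). A difference beyond 0.873-fold or 1.12-fold lay outside that interval.

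**Figure D3:**
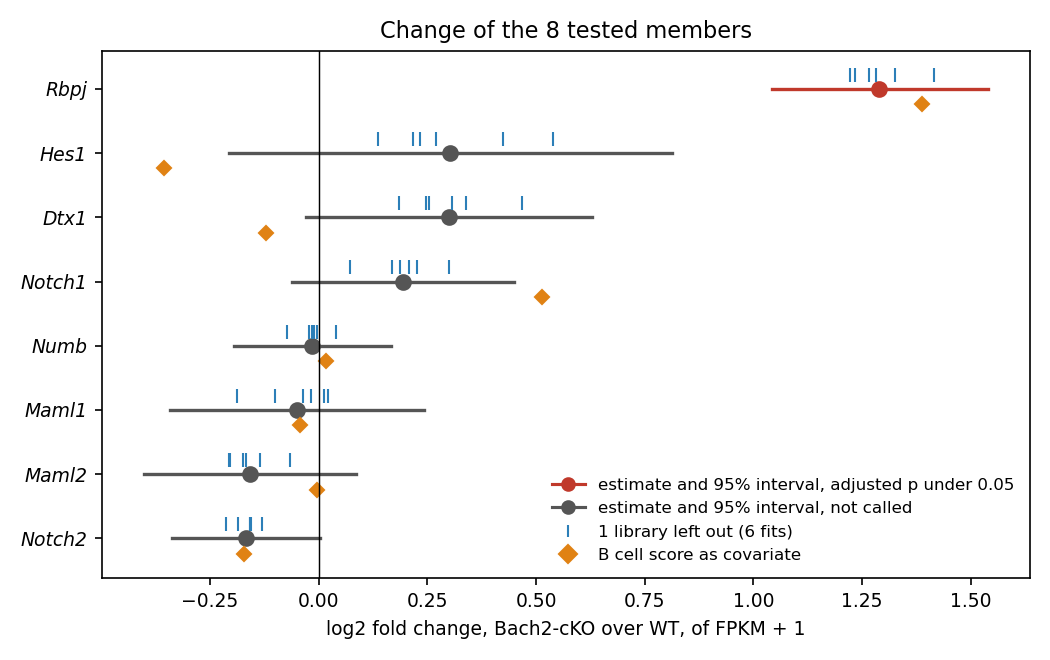
Log2 fold change, Bach2-cKO over WT, of FPKM + 1 for the 8 tested genes, with 95% intervals as lines, the 6 fits with 1 library left out as ticks and the fit with the B cell score as diamonds. Rbpj stood at 1.29, the other 7 intervals reached 0, and the diamonds of Hes1 (-0.36) and Dtx1 (-0.12) lay on the other side of 0 from their estimates.

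Deposited FPKM does not order these genes by transcripts per length of the full message. Reads recovered from the values show that FPKM was computed with the mean length of a gene's annotated transcripts for 7 of the 10 genes, short partial transcripts included; Notch3, Hes1 and Numb had another length. For Notch1, with 11 annotated transcripts, that length was 1519 bases, against 9488 bases for its longest coding transcript; for Rbpj, with 12, it was 2873 bases against 5485. Ratios of FPKM between libraries are not touched by this. Fold changes of FPKM + 1 and the filter at 1 FPKM depend on the length, mostly for genes at low levels. Levels between genes depend on it directly, and they were therefore also computed as reads per kilobase of the longest coding transcript and per 1000000 reads of the library.

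On that rescaled level Rbpj was at 66.9 ± 2.78 in Bach2-cKO and 27.2 ± 4.34 in WT, and Notch1 at 26.4 ± 1.08 in Bach2-cKO and 23.2 ± 3.62 in WT (SD, n = 3 each). The Rbpj range of 63.8 to 69.2 lay above the Notch1 range of 25.2 to 27.3 in Bach2-cKO. In WT the Rbpj range of 24.5 to 32.2 overlapped the Notch1 range of 19.5 to 26.7. On the deposited FPKM scale Notch1 was above Rbpj in each of the 6 libraries, so the order of the pair depends on the length used. After them in Bach2-cKO came Dtx1 at a rescaled level of 16.2 ± 0.998, Maml1 at 14.1 ± 2.56, Notch2 at 11.6 ± 0.290 and Numb at 11.1 ± 0.922, and neighbours in this order overlapped except Maml1 and Notch2. In WT the order was Maml1 at 14.5 ± 0.913, Dtx1 at 13.2 ± 2.94, Notch2 at 13.1 ± 0.797 and Numb at 11.2 ± 0.157, and of these neighbours Notch2 and Numb did not overlap. Maml2 followed at a rescaled level of 4.97 ± 0.151 in Bach2-cKO and 5.64 ± 0.706 in WT, and Hes1 at 3.05 ± 0.509 in Bach2-cKO and 2.44 ± 0.897 in WT, with no overlap between neighbours. Nrarp and Notch3 were last, at 0.296 and 0.108 in Bach2-cKO and at 0.424 and 0.134 in WT, with no overlap in either group between the lowest Nrarp and the highest Notch3 value.

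**Figure D4:**
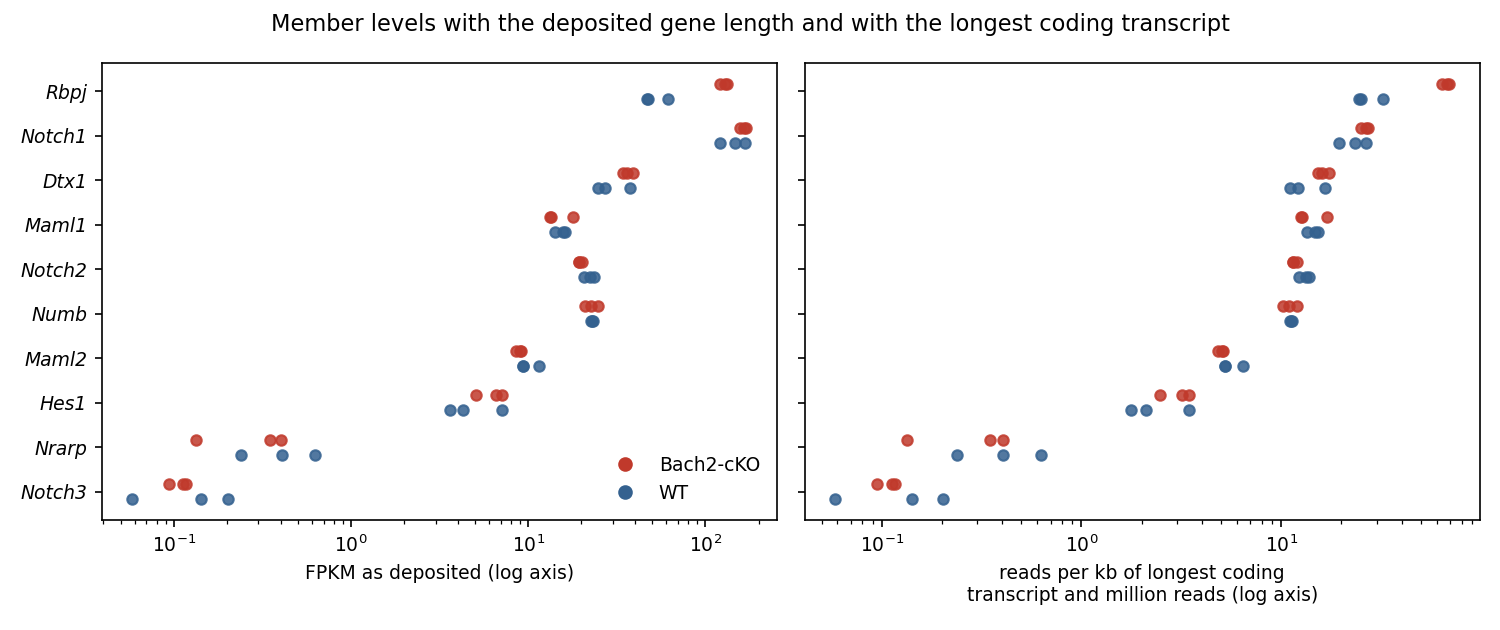
Level of each gene in every library on a log axis, Bach2-cKO above WT within each gene, as deposited FPKM (left) and as reads per kilobase of the longest coding transcript and per 1000000 reads of the library (right). On the left Notch1 lies above Rbpj in all 6 libraries; on the right Rbpj in Bach2-cKO, at 63.8 to 69.2, lies above all other values.

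Whether counting used the strand is not stated, so reads of genes that overlap on opposite strands cannot be told apart. Notch1 shares 1068 exonic bases with 0610009E02Rik and Nrarp 2051 with Gm38287, which were at no more than 0.552 FPKM and at 0 in every library. For Maml1 the opposite gene Gm26542 (135 shared bases) reached 0.523 FPKM, for Notch3 it was Gm17276 (488 shared bases, up to 0.143 FPKM). For Nrarp the shared bases are 2051 of 2582 exonic bases. How reads in shared bases were assigned was not tested, so the values of Notch3 and Nrarp, with few reads, are uncertain. Numb shares 166 exonic bases with the opposite gene Gm46367, not analysed here, and Notch2 shares 541 with Gm42820 on its own strand, which reached 0.165 FPKM. Rbpj shares no exonic base with an opposite gene.

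The rest of the pathway was described with 79 further genes in lists by role. Of these 66 were tested, 6 were higher, 10 were lower and 50 did not pass. Thus 24.2% were called, against 15.3% of all tested genes. That share includes the list of other targets described in T cells, with 71.4% of its 7 tested genes called. As this list was drawn up with earlier results on Il2ra and Tcf7 known, the higher share cannot be read as a result about the pathway. The median log2 fold change of the 66 was -0.06, against -0.02 for all tested genes. The number higher was 3 without any one of the 3 Bach2-cKO libraries, WT library 1 or WT library 2, and the number lower was 5 without Bach2-cKO library 2 or without WT library 1. When the B cell score was a covariate, 2 were higher (Il2ra and Cd44) and 1 was lower (Tcf7), all from that list of other targets. In that fit all 16 genes kept their direction and 14 stayed within 1.5 times their log2 fold change, Aak1 (-0.11) and Gata3 (0.50) being the exceptions, while their SEs were 1.12 to 1.77 times as large.

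Of the 5 genes for enzymes that put sugars on Notch receptors, all tested, 3 fell in Bach2-cKO and 2 did not pass, with a median log2 fold change of -0.26. Over all tested genes 8.31% were called lower and 7.02% higher, which is the background for each count by role. The lists were chosen with earlier results of these data known, so such small counts cannot be read as a result about a role. Lfng encodes Lunatic fringe, which extends O-fucose on the receptors and so alters which ligands they answer to. Lfng was at 126.8, 104.2 and 117.2 FPKM in Bach2-cKO libraries 1, 2 and 3, against 186.0, 188.5 and 187.4 FPKM in WT libraries 1, 2 and 3. The Lfng groups lay far apart, and the log2 fold change was -0.69 (SE 0.077, limma adjusted p = 0.00159). Lfng was called under 12 of 13 other settings and lost its call once the B cell score was a covariate, where the log2 fold change was -0.58 with a larger SE of 0.12 (limma adjusted p = 0.0829, in a range from 0.000403). Its relative Mfng, Manic fringe, averaged 71.69 ± 1.91 FPKM in Bach2-cKO and 85.83 ± 1.11 FPKM in WT (SD, n = 3 each; log2 fold change -0.26, SE 0.052, limma adjusted p = 0.0169). Poglut1, which adds O-glucose, averaged 28.37 ± 2.82 FPKM in Bach2-cKO and 36.04 ± 0.162 FPKM in WT (SD, n = 3 each; log2 fold change -0.34, SE 0.080, limma adjusted p = 0.0288). Mfng was called under 8 of 13 other settings and Poglut1 under 5 of 13. Pofut1 and Rfng did not pass, at -0.21 and -0.23 on the log2 scale.

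Of the 10 genes for cutting the receptors 9 were tested, 2 rose, 0 fell and 7 did not pass, with a median of 0.14. Among all tested genes 7.02% were called higher. Furin, the protease that cuts the receptor on its way to the surface, averaged 56.12 ± 2.10 FPKM in Bach2-cKO and 40.48 ± 3.01 FPKM in WT (SD, n = 3 each; log2 fold change 0.46, SE 0.072, limma adjusted p = 0.00580), and was called under 12 of 13 other settings. Adam10, the protease that cuts after ligand binding, did not pass at 0.14.

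Ligands were scarce apart from Dll1. Of 7 ligand genes 3 were tested and 1 fell, Jag2, at 1.327, 1.103 and 1.323 FPKM in Bach2-cKO libraries 1, 2 and 3, against 2.608, 2.675 and 2.868 FPKM in WT libraries 1, 2 and 3. The Jag2 groups did not overlap, and the log2 fold change was -0.72 (SE 0.13, limma adjusted p = 0.0108), called under 10 of 12 other settings. At this level the pseudocount matters, and the value was -1.06 with a pseudocount of 0.1 and -1.12 by limma-voom on recovered reads. Dll1 averaged 10.13 ± 2.53 FPKM in Bach2-cKO and 8.971 ± 1.75 FPKM in WT, and Jag1 2.515 ± 0.307 FPKM in Bach2-cKO and 1.709 ± 0.307 FPKM in WT (SD, n = 3 each), neither past the threshold (limma adjusted p = 0.635 and 0.135). Dll4, Dlk1 and Dlk2 were under the filter at means of at most 0.656 FPKM in either group, and Dll3 was listed at 0 in the 3 Bach2-cKO libraries and at 0.149, 0.0704 and 0.131 FPKM in WT libraries 1, 2 and 3. Among 4 tested ubiquitin ligases of the ligands 1 fell, Neurl3, named for its likeness to fly neuralized, which averaged 66.91 ± 17.2 FPKM in Bach2-cKO and 127.3 ± 17.8 FPKM in WT (SD, n = 3 each; log2 fold change -0.94, SE 0.18, limma adjusted p = 0.0125; called under 10 of 13 other settings).

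**Figure D5:**
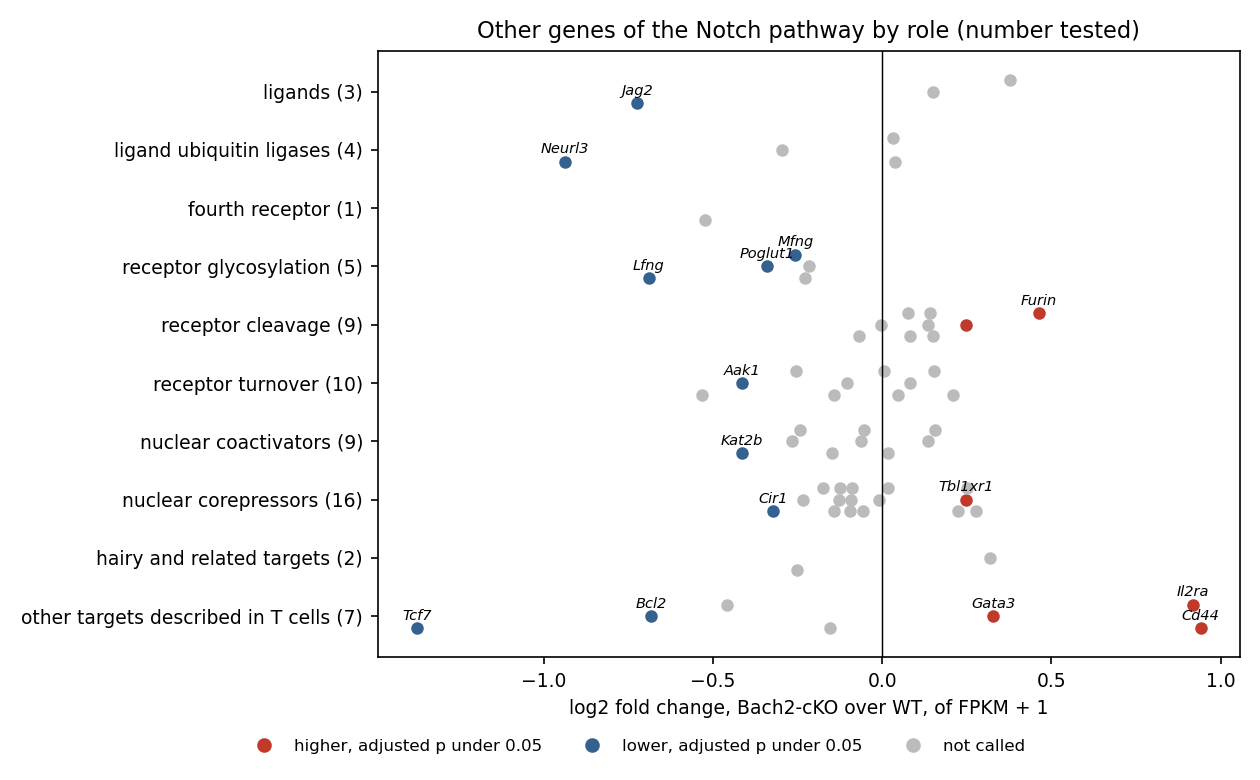
Log2 fold change, Bach2-cKO over WT, of FPKM + 1 for the 66 tested pathway genes in rows by role, with genes past the threshold in colour and all but 1 of them named. The 3 named glycosylation genes lie at -0.69 to -0.26 and the cleavage gene Furin at 0.46.

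Most genes for nuclear partners of RBPJ did not pass the test. Of 9 coactivator genes other than Maml1 and Maml2 1 fell, the acetyltransferase gene Kat2b, at 61.51 ± 3.40 FPKM in Bach2-cKO and 82.39 ± 7.39 FPKM in WT (SD, n = 3 each; log2 fold change -0.41, limma adjusted p = 0.0133; called under 11 of 13 other settings). Of 18 corepressor genes 16 were tested, 1 rose and 1 fell: Tbl1xr1, a subunit of NCoR complexes, by 0.25 (limma adjusted p = 0.0419) and Cir1, which binds RBPJ, with -0.32 (limma adjusted p = 0.0447), called under 4 and 3 of 13 other settings. Of 10 genes for receptor turnover, all tested, 1 fell, the kinase gene Aak1, with -0.41 (limma adjusted p = 0.0425; called under 6 of 13 other settings, and -0.11 when the B cell score was a covariate). Of 6 further hairy-type targets 2 were tested, Hes5 and Hes6, and neither passed (limma adjusted p = 0.437 and 0.255).

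Other genes described as Notch targets in T cells moved both ways. Of 8 genes 7 were tested, 3 rose and 2 fell, and this list was drawn up with earlier results on Il2ra and Tcf7 known. Il2ra, the IL-2 receptor alpha chain, averaged 482.0 ± 22.1 FPKM in Bach2-cKO and 256.3 ± 38.7 FPKM in WT (SD, n = 3 each; log2 fold change 0.92, SE 0.11, limma adjusted p = 0.00186). Cd44, an adhesion receptor of activated T cells, was at 0.94 (SE 0.082, limma adjusted p = 0.000701), and Gata3, a T helper lineage factor, at 0.33 (SE 0.087, limma adjusted p = 0.0436). The factor gene Tcf7, high in naive and memory-like T cells, fell by 1.38 on the log2 scale, at 76.52 ± 8.15 FPKM in Bach2-cKO and 200.3 ± 24.3 FPKM in WT (SD, n = 3 each; limma adjusted p = 0.000523), and the survival gene Bcl2 fell by 0.68 (limma adjusted p = 0.00316). Gata3 was called under 5 of 13 other settings. Myc did not pass at -0.46 (limma adjusted p = 0.0823).

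Genes whose levels most resembled Rbpj over the 6 libraries were looked for among 10112 tested genes with a mean of at least 5 FPKM, as a description. By Pearson correlation of log2(FPKM + 1) the nearest were Malt1 (0.9995), Tmem156 (0.999), Il2ra (0.9967), Nabp1 (0.9963) and Mapre2 (0.9961). The 6 libraries form 2 groups and share their depth and cell makeup, so these values mostly restate a difference between groups in which WT library 3 lies nearest to Bach2-cKO. Malt1, a signalling protease downstream of the antigen receptors, was at 74.5, 72.3 and 69.6 FPKM in Bach2-cKO libraries 1, 2 and 3, against 39, 38.4 and 45.4 FPKM in WT libraries 1, 2 and 3. Its order over the libraries is that of Rbpj except for WT libraries 1 and 2. The most unlike genes were Bambi-ps1 (-0.9983), Thyn1 (-0.9981), Ncln (-0.9976), Tpcn1 (-0.9974) and Pecam1 (-0.9965), of which Bambi-ps1 was at 4.1, 4.2 and 4.3 FPKM in Bach2-cKO libraries 1, 2 and 3, against 25.5, 24.9 and 17.4 FPKM in WT libraries 1, 2 and 3.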

How the data were processed

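Per the submitters' processing notes, HISAT2 2.0.5, featureCounts 1.5.0-p3 and the genome build mm9 were used; the annotation and the strand setting are not stated there. FPKM was deposited by the authors per gene and library, in 1 table and in 6 library files equal to its columns. Of 49326 gene identifiers also in GENCODE M21, 45128 (91.5%) have the same GRCm38 position there, so positions are given as GRCm38.

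Whole reads and library totals were recovered from the steps of the FPKM values (28529 of 28530 genes above 0, tolerance 0.001 reads). Of 16630 such genes with more than 1 transcript, 12062 (72.5%) had been divided by the mean length of their transcripts. Replicates differed by more than sampling noise (chi-square per degree of freedom 9.68 to 21.8).

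The test took genes that reached 1 FPKM in 3 or more libraries. It was run on log2(FPKM + 1) by limma 3.58.1 (lmFit, eBayes with trend) in R 4.3.3, Bach2-cKO over WT, without covariates. P-values were two-sided, with Benjamini-Hochberg adjustment over all 13766 genes. The test was also run on simulated reads with the same spread for every gene and no differences in cell makeup, a simpler case than these libraries. Notch3 and Nrarp, under the filter, had an exact permutation test. Alternatives were median-ratio scaling, a pseudocount of 0.1, no filter or a filter of 5 FPKM, limma-voom on recovered reads, the replicate number as a block, the B cell score as a covariate and leaving out each library. Named were the 10 genes, every pathway gene past the threshold (1 is not reported here), the ligands, Notch4, and the 5 genes most and 5 least like Rbpj; other genes named were chosen after their values were seen. The members and lists were chosen with earlier results of these data known. Matplotlib 3.10.9 and Python 3.11.15 made the figures.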

Additional observations from a re-analysis of the deposited data

How the results depend on the processing

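Rbpj kept its direction and its call under all 13 alternatives, with a log2 fold change of 1.22 to 1.42 when 1 library was left out. Of the 10 genes, 1 or 2 were called with 1 library left out (1 or 2 higher), the second being Dtx1 without WT replicate 2 (0.47). The log2 fold change changed sign for Hes1 (-0.36), Dtx1 (-0.12) and Numb (0.0163) when the B cell score was a covariate, for Numb with median-ratio scaling (0.0103) and without Bach2-cKO replicate 2 (-0.0740 to 0.0403 over the libraries left out), and for Maml1 without Bach2-cKO replicate 1 or 2 (-0.187 to 0.0217 over the libraries left out); none of these was past the threshold, and the cause was not tested. Notch3 and Nrarp did not pass in the fit with no filter (limma adjusted p = 0.777 and 0.650).

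Of the other pathway genes, 6 higher and 10 lower became 3 and 5 with no filter on low values, where more genes are tested, 2 and 1 under the B cell score, 3 and 7 with the replicate block, 3 to 4 and 5 to 11 with 1 library left out, and 7 and 15 by limma-voom on the recovered reads. Over all genes, 967 higher and 1144 lower became 501 and 681 without a filter, 94 and 101 under the B cell score, 625 and 657 with the replicate block, 492 to 1224 and 560 to 1375 with 1 library left out, and 1170 and 1348 by limma-voom on the recovered reads. Deviations from the group means correlated at -0.0526, 0.00578 and -0.215 between libraries of the same replicate number. With so few libraries a group, these values cannot show whether the numbers pair the libraries. The B cell score had the same order by number in both groups. With the number as a block Rbpj stayed called (limma adjusted p = 0.00442). The fewest reads in a library were 13 for Notch3 and 11 for Nrarp, so that counting error is large for both.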

Other observations

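An antisense gene within Rbpj, Gm40304 (Gm42747 in the deposited table), followed the same direction as Rbpj at a far lower level, a value chosen after it was seen. It was at 3.098, 2.217 and 0.806 FPKM in Bach2-cKO libraries 1, 2 and 3, against 0.085, 0.0 and 0.539 FPKM in WT libraries 1, 2 and 3. The groups did not overlap, but Gm40304 was under the filter, and in the fit with no filter it did not pass (log2 fold change 1.28, SE 0.34, limma adjusted p = 0.112). It shares 0 exonic bases with Rbpj, and Bach2-cKO library 1, the highest for Gm40304, was also the highest for Rbpj. As strand use in counting is not stated, reads of Gm40304 cannot be told apart from reads of unspliced Rbpj RNA. The other antisense gene there, Gm10441, was at no more than 0.093 FPKM in any library.

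Hey1, a hairy-related target under the filter, was also seen to have groups that did not overlap. It was at 0.461, 0.325 and 0.374 FPKM in Bach2-cKO libraries 1, 2 and 3, against 0.600, 0.775 and 0.663 FPKM in WT libraries 1, 2 and 3, and in the fit with no filter Hey1 did not pass (log2 fold change -0.28, SE 0.082, limma adjusted p = 0.145).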
